A study of Mus musculus with 18 samples.

Results

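The genes described here are the clustered histone genes of the mouse, taken as every gene of the deposited table whose symbol starts with Hist1h, Hist2h, Hist3h or Hist4h. They number 70 of the 35275 genes listed. By symbol, 6 are genes of the linker histone H1, which binds the DNA between nucleosomes. The others are 20 H2A, 19 H2B, 12 H3 and 13 H4 genes, named for the core histones around which DNA is wound. Not all encode a histone: the GENCODE M21 annotation lists Hist1h2aj, Hist1h2al and Hist3h2bb-ps as pseudogenes. It gives the identifier of Hist2h2bb to a long noncoding RNA gene. The Hist1 cluster on chromosome 13 held 56 of the 70, the Hist2 cluster on chromosome 3 held 10, the Hist3 cluster on chromosome 11 held 3, and Hist4h4 stood alone on chromosome 6.

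The libraries came from C2C12 cells, an established line of mouse myoblasts that can fuse into multinucleated muscle fibres when serum is withdrawn; the labels call this stock PAX7 negative. Cells labelled wild-type served as control, and the other cells overexpressed the spliced form of the long noncoding RNA MUNC (MUNC spliced) or its genomic form (MUNC genomic). Each was sampled in growth medium with 20% fetal bovine serum (GM) and after 3 days in 2% horse serum (DM3), with 3 biological replicates in each of the 6 groups. RNA was enriched for poly(A) before sequencing, and neither the vector nor the clonality of the overexpressing cells is given in the sources used here.

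Most clustered histone genes are transcribed in S phase, when newly copied DNA needs new nucleosomes. Their messages are unusual among those of animals in that they normally end in a short stem-loop and not in a poly(A) tail: the stem-loop binding protein SLBP and the U7 snRNP direct the cut just after the stem-loop. Some of these genes can also use a poly(A) signal further downstream, which gives a longer, polyadenylated message. A poly(A)-enriched library therefore does not measure the total histone message, and a change in the values below may lie in the amount of message or in the share of it that carries a tail, which cannot be told apart here. In bulk RNA, likewise, fewer cells that express a gene and less of its RNA per cell cannot be told apart.

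The stem-loop is shown first because messages that end at it normally lack the poly(A) tail that the library preparation selects for. The pattern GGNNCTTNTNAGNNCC, with all 6 bases of its stem able to pair, was found in the GENCODE M21 transcripts (GRCm38, the assembly also named mm10) of 44 members, and in 26 of 141691 transcripts of other genes (0.0183%). The commonest form was carried by 24 members, the form of Hist4h4 by 7 and that of Hist1h3c by 6. In the sequences below, written 5′ to 3′ on the strand of the gene, capitals mark the stem-loop and lower case marks 5 bases on either side. The first 4 genes rose and the last 4 fell after 3 days in DM3 in control cells.
Hist1h1c: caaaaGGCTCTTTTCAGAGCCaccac
Hist3h2a: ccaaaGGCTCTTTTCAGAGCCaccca
Hist1h2bg: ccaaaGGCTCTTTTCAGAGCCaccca
Hist2h4: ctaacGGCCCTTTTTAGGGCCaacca
Hist1h2ae: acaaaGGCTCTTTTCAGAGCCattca
Hist1h3c: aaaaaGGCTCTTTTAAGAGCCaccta
Hist1h2ao: aaaaaGGCTCTTTTCAGAGCCatcca
Hist4h4: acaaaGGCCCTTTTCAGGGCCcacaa
Hist1h1c, Hist3h2a and Hist1h2bg, which rose, carry the same 16-base stem-loop as Hist1h2ae and Hist1h2ao, which fell, so the letters of the stem-loop did not separate the 2 directions among these genes.

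What lies after the stem-loop differed more. For 22 members the longest M21 transcript ran on for 100 bases or more past the stem-loop (median 603 bases, 108 to 4884), and for another 22 it stopped within 74 bases (median 32). No stem-loop was found in the transcripts of 24 members, some of which are annotated as the coding sequence alone, and 2 members, Hist1h2bh and Hist1h2bm, were not matched in M21. The line of 100 bases was chosen after values of these data were known; Hist1h3c, with 74 bases, was just below it and Hist1h4a, with 108 bases, just above. A poly(A) signal, AATAAA or ATTAAA, stood in the last 40 bases of 12 of the 22 longer transcripts and of 1 of the 22 shorter ones, and in 48.7% of the protein-coding transcripts of other genes. The annotated last 30 bases of 3 members with such a signal are shown with the signal in capitals.
Hist1h1c: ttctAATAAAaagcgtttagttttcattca
Hist1h2ae: ccAATAAAtgggtcaatttttttcagattc
Hist4h4: agaagatgctagaggagatgaAATAAAtac
Hist1h1c rose in DM3, while Hist1h2ae and Hist4h4 fell, so a signal at the annotated end was found with either direction.

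The values are FPM, the authors' fragment counts scaled to the size of each library, from which whole reads could be recovered. Recovered depth was 38416702 to 68788327 reads per library, so the 3 reads that a count of 0 allows came to at most 0.0757 FPM; such limits cover counting error only. Libraries of a group correlated at 0.980 to 0.996 on the log2 scale and libraries of different groups at 0.868 to 0.975, and no library stood apart from its group. The muscle markers went only partly with the labels: Myog, a myogenic factor that rises as myoblasts differentiate, averaged 0.344 FPM in the DM3 libraries of control cells, 106 FPM in those with MUNC spliced and 9.70 FPM in those with MUNC genomic, and Myh3, embryonic myosin, was 0.444, 79.8 and 9.64 FPM. The control libraries labelled myotubes thus held little of either marker. Of the 8 genes of the myoblast and muscle list, 3 were higher and 1 lower in control DM3, 5 higher and 1 lower with MUNC spliced, and 6 higher and 1 lower with MUNC genomic. The list's summed FPM, nearly all of it Vim, was 6864 to 10650 in control GM against 3027 to 3696 in control DM3. The tissue label goes with the medium in the title in all 18 samples, but the source name, myoblasts or myotubes, goes against it in 9, among them all 3 control DM3 samples; groups follow the titles. The 30 genes of an S phase and DNA replication list all fell in control DM3 (median log2 change -2.89) and in MUNC spliced DM3 (median -1.46), and 29 of 30 fell in MUNC genomic DM3 (median -2.60). Mki67, a proliferation marker, fell by 3.00 on the log2 scale in control DM3.

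Over all libraries Hist1h1c stood far above the others, at a mean of 84.4 FPM, followed by Hist1h2bc at 10.8 FPM and Hist3h2a at 6.24 FPM. Per kilobase of the M21 transcript, the level of Hist1h1c was 54.1 FPM, that of Hist1h2bc 9.33 FPM, that of the H4 gene Hist1h4i 5.99 FPM and that of Hist3h2a 2.91 FPM. Hist1h1c alone made up 29.7% to 66.1% of the summed FPM of all members in the GM libraries and 60.1% to 82.5% in the DM3 libraries. At the other end, 5 members had no read in any library, Hist1h2aa, Hist2h2aa1, Hist2h2aa2, Hist2h3b and Hist2h3c1, and 2 more, Hist1h2bq and Hist1h2br, had 1 to 9 reads in all. Many of these genes are near copies of each other: on average a gene below the filter had less unique sequence, with a median of 31.0% of its 50-base windows found in no other M21 gene against 75.2% for the members above it. Of the 5 members with no read, all but Hist1h2aa had no such unique window, so a lack of assignable reads there does not show a lack of message.

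Only 21 members reached 0.5 FPM in at least 3 libraries, the minimum for the limma test: 5 H1, 4 H2A, 5 H2B, 3 H3 and 4 H4 genes. The other 49 are described by their sum and by a fit on reads that was added after the values had been seen. That filter acts on the outcome: 12 of the 21 passed on the GM libraries and on the DM3 libraries taken separately, 4 on the DM3 libraries only, 4 on the GM libraries only and 1 on both together. A gene that passed only through the medium in which it was high had to differ, so the counts over the 21 are given as a description. This limit applies to the limma p-values of 8 genes: Hist1h2ac, Hist1h2al, Hist1h4n and Hist2h2bb passed on DM3 libraries only, and Hist1h1a, Hist1h2ae, Hist1h3c and Hist4h4 on GM libraries only. All 8 were called by limma in control DM3 against GM, and 7, all but Hist1h4n, were called in the same direction by an edgeR fit whose filter takes at least 10 reads over all libraries together.

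The sums of the members above and below the filter moved in opposite directions in DM3. The filter used these same values, and a rare member that rose enough in DM3 counted among the 21. Hist1h2ac, Hist1h2al, Hist1h4n and Hist2h2bb passed in that way. The opposition is thus partly built into the split and is given as a description. The FPM of the 21 members, summed, was 59.7, 46.2 and 42.4 in control GM and 265, 215 and 167 in control DM3. The 49 members below the filter summed to 8.69, 8.94 and 12.2 FPM in control GM, then to 5.17, 2.92 and 3.72 FPM in DM3. The same opposition held in the overexpressing cells, where the 49 went from 4.89 to 6.44 FPM in GM to 1.93 to 4.25 FPM in DM3 with MUNC spliced, and from 4.48 to 6.39 FPM to 1.31 to 1.96 FPM with MUNC genomic. GM and DM3 libraries did not overlap in either sum in any of the 3 kinds of cell. In GM the sum of the 49 was also lower in every MUNC spliced and MUNC genomic library than in every control library. No test was made on these sums.

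**Figure D1:**
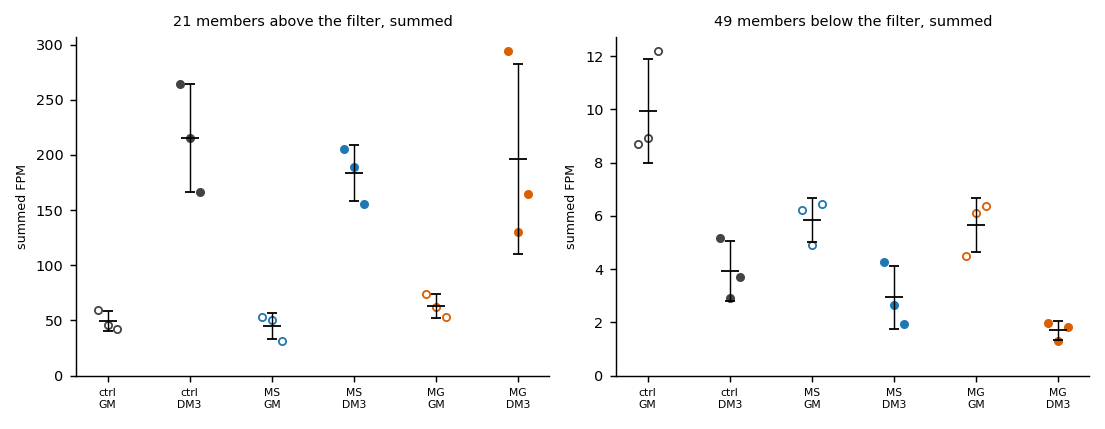
Summed FPM of the 21 members above the filter (left) and of the 49 below it (right) in each of the 18 libraries; points are libraries (open GM, filled DM3; ctrl control, MS MUNC spliced, MG MUNC genomic), and bars give the mean and SD of 3. The left sum is higher and the right sum lower in every DM3 library than in the GM libraries of the same cells, and the scales of the panels differ.

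In control cells 13 of the 21 members were called higher in DM3 than in GM and 4 lower, by limma on log2(FPM + 1) at a Benjamini-Hochberg adjusted p under 0.05. Over all 13869 genes tested, 29.6% were called higher and 28.6% lower. The median log2 change of these 21 was 0.77, against 0.02 over all genes tested; over the 63 members with at least 10 reads it was -1.65 by edgeR, against 0.01 over all genes in that fit. Of the 13 called higher, 9 had passed the filter in both media; all 4 called lower had passed on GM libraries only. In the blocked fit, which takes the replicate number as a batch, the same counts of 13 and 4 were obtained. The changes are described by histone type in what follows, and a log2 change not credited to edgeR refers to log2(FPM + 1), where changes of genes near 0 come out too small.

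Among the linker histones, Hist1h1c, which encodes H1.2, a linker histone made in dividing and in resting cells, rose most. Its FPM values were 31.0, 22.4 and 16.2 in control GM and 182, 146 and 108 in control DM3. The lowest DM3 library was thus above the highest GM library several times over. The mean went from 23.2 ± 7.44 to 146 ± 37.0 FPM (SD, n = 3), a limma log2 change of 2.61 ± 0.33 (SE, adjusted p = 6.3e-06). Hist1h1d, which encodes H1.3, had 0.597, 0.708 and 1.18 FPM in GM and 2.94, 1.76 and 2.14 FPM in DM3, a limma log2 change of 0.84 ± 0.21 (SE, adjusted p = 0.0026). Its M21 transcript runs 4884 bases past the stem-loop, the longest such stretch among the members. Hist1h1a, which encodes H1.1, went the other way, with 0.751, 0.407 and 0.722 FPM in GM and 0.096, 0 and 0.0184 FPM in DM3 (limma log2 change -0.64, adjusted p = 0.00067). Hist1h1b and Hist1h1e, which encode H1.5 and H1.4, overlapped between the media and were not called. For Hist1h1e the values were 0.529, 1.03 and 0.999 FPM in GM and 1.33, 0.69 and 0.847 FPM in DM3; it overlaps Hist1h2be on the same strand, so reads of these 2 genes could be shared or dropped. The sixth gene, the testis form Hist1h1t, had at most 5 reads in any group.

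Among the H2A genes, Hist3h2a had 4.30, 6.03 and 2.50 FPM in control GM and 15.7, 8.94 and 7.39 FPM in DM3 (limma log2 change 1.14, adjusted p = 0.0027). Hist3h2a shares its strand and part of its sequence span with Trim17, a tripartite motif gene that also had more signal in DM3, at 2.13 ± 0.21 against 0.617 ± 0.409 FPM (SD, n = 3); how reads in the shared stretch were assigned was not tested. Hist1h2ac had 0.290, 0.106 and 0.277 FPM in GM and 1.57, 1.54 and 0.387 FPM in DM3 (limma log2 change 0.77, adjusted p = 0.0015), with 1 DM3 library far below the other two. Hist1h2al, which M21 lists as a processed pseudogene, was at 0.0531 to 0.169 FPM in GM and 0.809 to 1.09 FPM in DM3 (limma log2 change 0.82, adjusted p = 0.00073). Hist1h2ae was the exception. It fell from 1.52, 1.47 and 2.30 FPM to 0.384, 0.256 and 0.313 FPM, without overlap (limma log2 change -1.06, adjusted p = 5.5e-06).

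All 5 tested H2B genes rose in control DM3. Hist1h2bc, the second most abundant member, had 6.90, 3.89 and 4.61 FPM in GM and 25.1, 30.2 and 25.3 FPM in DM3. The 3 DM3 libraries lay close together, at 26.9 ± 2.87 FPM (SD, n = 3), and all were above GM (limma log2 change 2.21 ± 0.26 SE, adjusted p = 3.7e-06). The gene listed as Hist2h2bb had 0.495, 0.425 and 0.338 FPM in GM and 8.55, 4.28 and 4.02 FPM in DM3 (limma log2 change 2.16, adjusted p = 7.8e-05). Its identifier belongs in M21 to a long noncoding RNA gene, Gm42743, that overlaps the coding gene on the same strand, so these reads may not come from an H2B message. Hist2h2be had 2.32, 2.04 and 2.18 FPM in GM and 4.72, 4.68 and 3.94 FPM in DM3 (limma log2 change 0.77, adjusted p = 7.8e-05). Hist1h2be and Hist1h2bg had limma log2 changes of 0.87 (adjusted p = 0.014) and 0.73 (adjusted p = 0.0091). Both calls rest on single libraries: without control GM replicate 3 the adjusted p of Hist1h2be was 0.070, and without control DM3 replicate 2 that of Hist1h2bg was 0.058. The lowest DM3 library of Hist1h2bg, at 1.09 FPM, was barely above the highest in GM, at 1.06 FPM.

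The H3 and H4 genes were split. Hist1h3c, an H3 gene, fell from 0.751, 1.22 and 1.38 FPM in GM to 0.0768, 0.0395 and 0.203 FPM in DM3 (limma log2 change -0.93, adjusted p = 7.7e-06). Hist2h3c2, an H3 gene of the Hist2 cluster, had 0.700, 0.124 and 0.123 FPM in GM and 2.73, 0.651 and 0.995 FPM in DM3. Its groups overlapped, and its call (limma log2 change 0.84, adjusted p = 0.0097) was lost without control DM3 replicate 1 (adjusted p = 0.063). Hist2h4, an H4 gene, had 0.819, 0.602 and 0.584 FPM in GM and 2.30, 3.91 and 2.30 FPM in DM3 (limma log2 change 1.18, adjusted p = 0.00081). Hist4h4 fell by 0.35 (limma, adjusted p = 0.024), with 94 reads over the 3 GM libraries and 27 over the 3 DM3 libraries; without control GM replicate 3 the adjusted p was 0.15, without control DM3 replicate 1 it was 0.071, and without control DM3 replicate 3 it was 0.056. Hist1h4n was called higher by limma (log2 change 0.27, adjusted p = 0.013) but not by edgeR (adjusted p = 0.066), and only 14.4% of its 50-base windows are unique. Hist1h4i, the most abundant H4 gene, was not called, at 4.23, 2.50 and 4.82 FPM in GM and 7.05, 4.70 and 3.81 FPM in DM3.

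**Figure D2:**
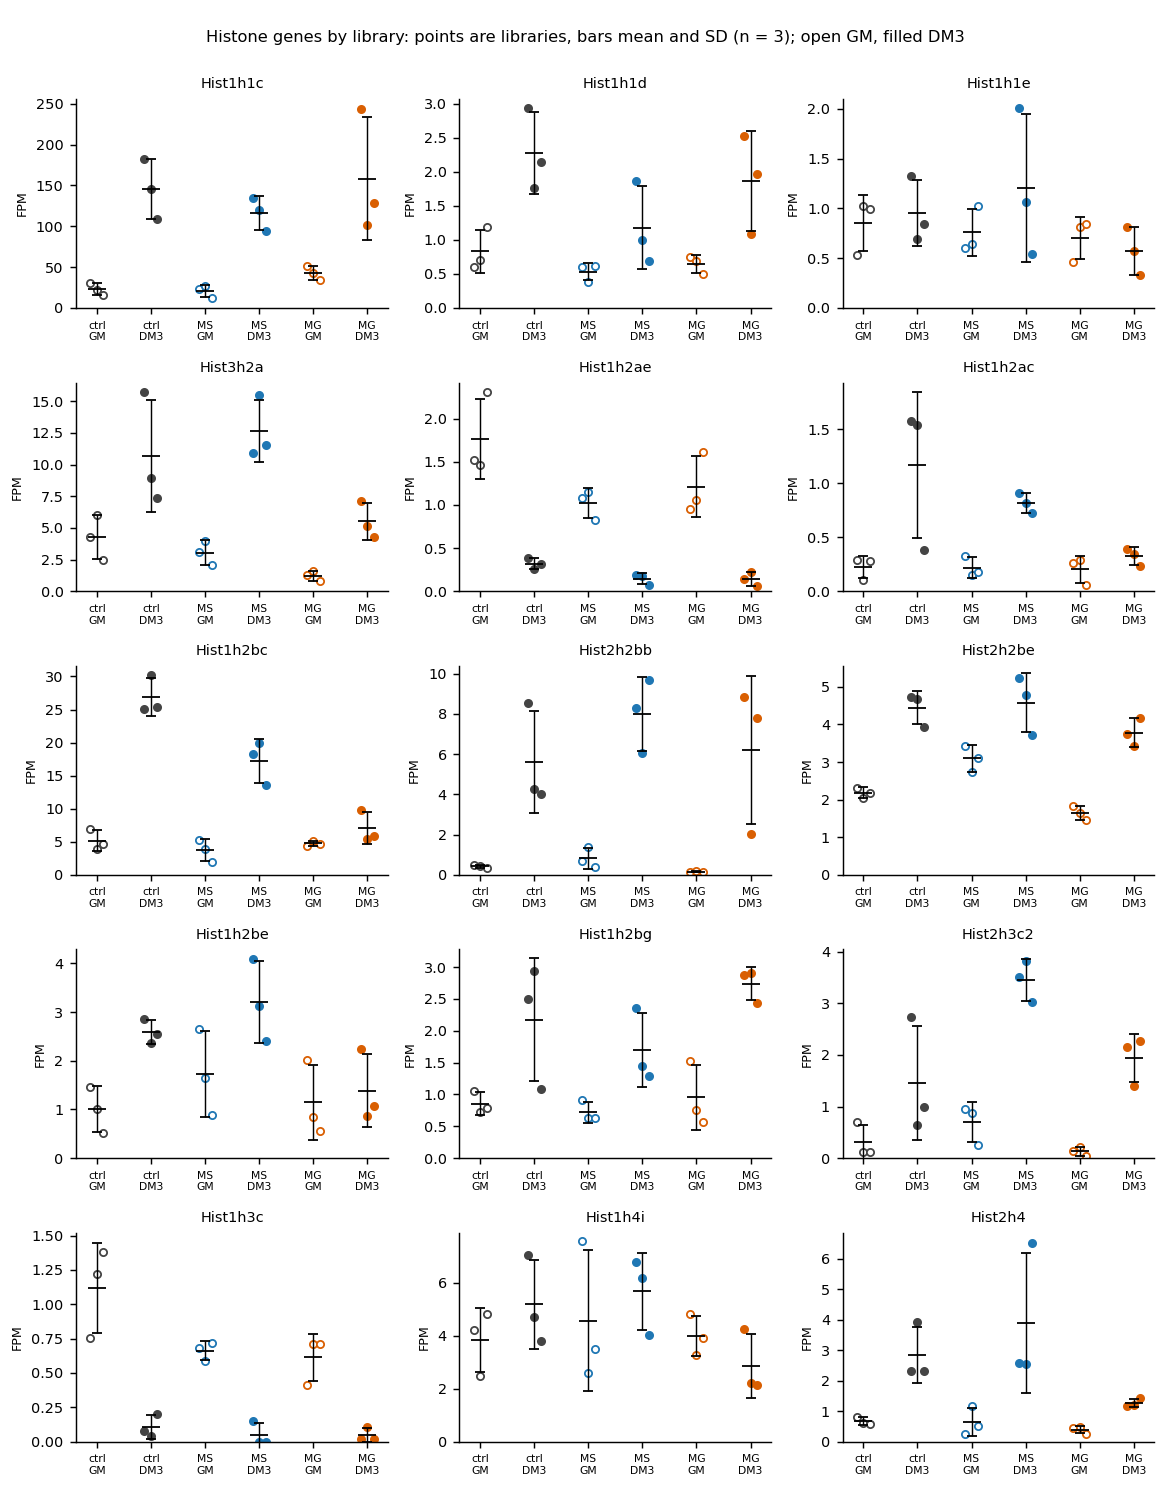
FPM of 15 histone genes in each library, ordered by histone type; points are libraries (open GM, filled DM3), bars give the mean and SD of 3, and each panel has its own linear axis from 0. Hist1h1c goes from 16.2 to 31.0 FPM in control GM to 108 to 182 FPM in control DM3, whereas Hist1h2ae and Hist1h3c go down in DM3 in all 3 kinds of cell.

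The rarer members were tested with edgeR's quasi-likelihood test on the recovered reads, over the 20007 genes with at least 10 reads in all libraries together. This fit covered 63 members, 42 of them below the limma filter. In control cells it called 12 members higher and 24 lower in DM3, against 20.3% of all genes higher and 21.4% lower. All 12 higher calls were members above the limma filter, and 20 of the 24 lower calls were members below it. Of the 42 rarer members, none was called higher and 20 were called lower, with a median log2 change of -2.31. A rare member that rose past the limma filter in DM3 was not counted among the 42. The lack of higher calls there is thus partly fixed by the filter, and the split is a description. By type, 7 of 17 H2A, 7 of 17 H2B, 5 of 10 H3, 4 of 13 H4 and 1 of 6 H1 genes were called lower. The rarest counts make these calls fragile: the lower calls numbered 12 without control DM3 replicate 3, 13 without control GM replicate 3 and 14 without control DM3 replicate 2, and 20 to 24 without any other single library. In the authors' deposited table for the same comparison, 12 members were higher and 19 lower among 59 with an adjusted p-value. The share of all genes called there was not counted, so these counts are only a description.

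Single genes show what these counts rest on. Hist1h2ao, an H2A gene, had 12, 18 and 30 reads in control GM and none in the 3 control DM3 libraries, which put it at least 17.4-fold lower with the floor of 3 reads taken over the group. Only 6.497% of its 50-base windows are unique. Such fold limits set the GM level as counted against that floor and leave out the counting error of the GM reads. Hist1h2bm, an H2B gene, had 14, 8 and 26 reads in GM and none in DM3, at least 13.9-fold lower. Hist1h2bj, another H2B gene, had 24, 22 and 40 reads in GM and 2, 0 and 1 in DM3 (edgeR log2 change -4.51). Hist1h3a, an H3 gene, had 12, 12 and 15 reads in GM and 0, 0 and 1 in DM3 (edgeR log2 change -4.70). The GM and DM3 libraries of these 4 genes did not overlap; over all genes with at least 10 reads, 23.5% were lower in every control DM3 library. These 4 were chosen after their values were seen. Rare H4 genes did not all follow: Hist1h4j had 28, 18 and 27 reads in control GM and 32, 24 and 39 in control DM3, and was not called.

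**Figure D3:**
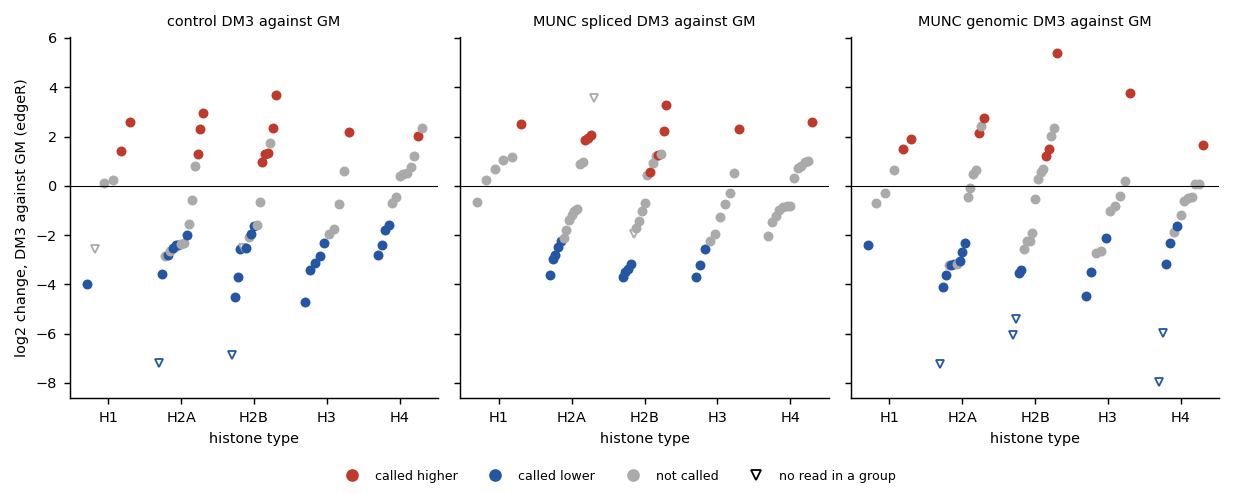
Log2 change of DM3 against GM by edgeR for the 63 members with at least 10 reads, by histone type, in control (left), MUNC spliced (middle) and MUNC genomic cells (right); red points were called higher, blue lower and grey not called, and open triangles mark genes with no read in 1 of the groups, whose fitted value is no measure of size. In each type some members were called higher in control cells, and the lower calls outnumber the higher ones in H2A, H2B, H3 and H4.

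The direction of change went with the annotated stretch after the stem-loop, though not without exception. Of the 21 members with 100 bases or more past the stem-loop and at least 10 reads, edgeR called 8 higher and 4 lower in control DM3, with a median log2 change of 0.39. Of the 20 with a shorter stretch, it called none higher and 11 lower, with a median of -2.04. Over all genes in that fit, 20.3% were called higher and 21.4% lower. In MUNC spliced cells the same counts were 6 higher and 2 lower against none higher and 6 lower (11.0% and 11.2% of all genes). In MUNC genomic cells they were 6 higher and 4 lower against none higher and 9 lower (18.4% and 17.8%). The lowest stretch among the members called higher in control cells was that of Hist1h2bg, at 155 bases. The 4 lower calls among the longer transcripts were Hist4h4 (2445 bases), Hist1h4d (770 bases), Hist1h3e (369 bases) and Hist1h2ae (151 bases). Hist1h4n, whose transcript stops close to the stem-loop, was called higher by limma only. Among the 20 members with no stem-loop in M21, 4 were called higher, Hist1h2bc, Hist2h2bb, Hist2h2be and Hist1h2al, and 7 lower. Stretch and level went together: 13 of the 22 members with the longer stretch passed the limma filter, against 2 of the 22 with the shorter one. All higher calls in control cells were of members above that filter, so stretch and level were not separated here. These are counts under a threshold set with the values known, and they were not tested.

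**Figure D4:**
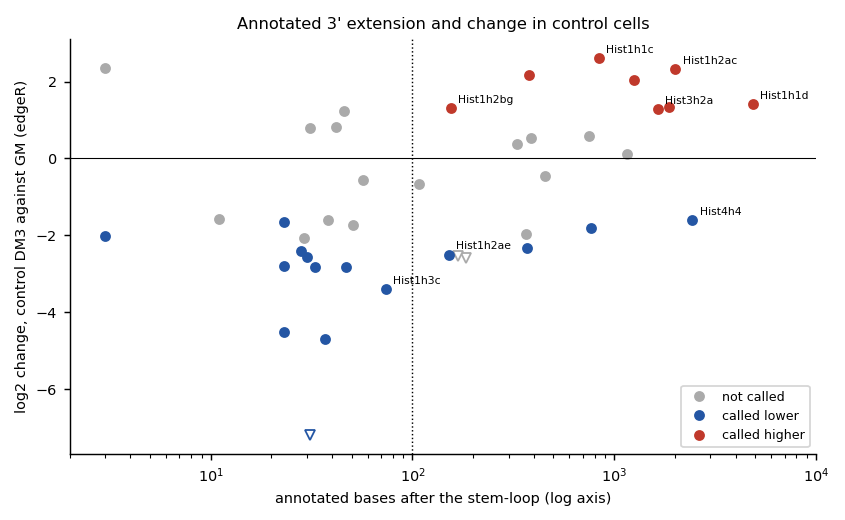
Log2 change of control DM3 against GM by edgeR against the number of annotated M21 bases after the stem-loop (log axis), for the 41 members with a stem-loop and at least 10 reads; the dotted line marks 100 bases, colours mark calls, and the open triangles have no read in 1 group. By edgeR no gene to the left of the line was called higher, while Hist4h4 and Hist1h2ae were called lower to the right of it.

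Many H2A and H2B genes sit head to head and share the stretch between their starts as a promoter. There were 13 such pairs in M21, and both genes had at least 10 reads in 10 of them. Among the 10 is the pair of Hist3h2a with Hist3h2bb-ps, a pseudogene in M21. In 4 pairs both genes were called lower by edgeR in control DM3: Hist1h2ag and Hist1h2bj, Hist1h2ah and Hist1h2bk, Hist1h2ak and Hist1h2bn, and Hist1h2ai and Hist1h2bl. Over all genes in that fit, 21.4% were called lower and 20.3% higher. Of the 50-base windows of the genes in these 4 pairs, only 7.87% to 43.0% were unique. How reads of near copies were assigned was not tested. In 1 pair, Hist1h2ac and Hist1h2bc, both were called higher, by 2.32 and 2.34 on the log2 scale. In 1 pair the genes moved apart: Hist1h2ae fell by 2.51 and Hist1h2bg was higher by 1.30, although only 175 bases lie between their M21 starts. Hist2h2be was called higher (edgeR log2 change 0.98) while its partner Hist2h2ac was not called, with 35 reads in control GM and 21 in control DM3.

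**Figure D5:**
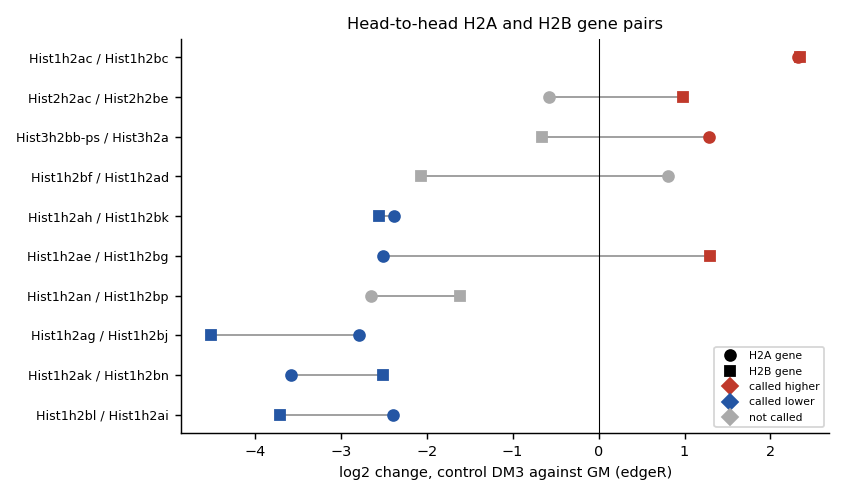
Log2 change of control DM3 against GM by edgeR for both genes of the 10 head-to-head H2A and H2B pairs in which each had at least 10 reads; circles are H2A genes, squares H2B genes, and colours mark calls. The Hist1h2ac and Hist1h2bc points coincide near 2.3, and the Hist1h2ae and Hist1h2bg points lie at -2.51 and 1.30.

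The stretches between the starts of the pair that rose together and the pair that moved apart are shown because the partners of each share 1 stretch of DNA. They were read from RefSeq promoters (GRCm38.p6), on the plus strand, with capitals marking the CCAAT box, the TATAAA box and the octamer ATTTGCAT on either strand. The first is chr13:23683960-23684198, between Hist1h2ac on the minus strand and Hist1h2bc on the plus strand, and the second is chr13:23571221-23571399, between Hist1h2ae on the minus strand and Hist1h2bg on the plus strand. The start of Hist1h2bc came from M21, since no RefSeq promoter was matched to it, and the other starts came from RefSeq. By these RefSeq starts the second stretch is 179 bases long.
Hist1h2ac and Hist1h2bc: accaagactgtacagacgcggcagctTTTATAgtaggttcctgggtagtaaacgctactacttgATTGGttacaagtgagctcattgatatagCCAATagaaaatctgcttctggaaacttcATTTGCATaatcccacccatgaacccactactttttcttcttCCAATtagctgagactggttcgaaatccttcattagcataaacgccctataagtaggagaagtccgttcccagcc
Hist1h2ae and Hist1h2bg: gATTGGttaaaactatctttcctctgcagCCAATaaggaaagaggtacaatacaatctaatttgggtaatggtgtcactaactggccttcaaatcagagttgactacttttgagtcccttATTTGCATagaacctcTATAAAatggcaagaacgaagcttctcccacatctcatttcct
Both stretches hold all 3 motifs, the octamer ATTTGCAT bound by OCT1 among them, but not in the same number and orientation. TATAAA reads on the minus strand between Hist1h2ac and Hist1h2bc and on the plus strand between Hist1h2ae and Hist1h2bg. The stretch of Hist1h2ac and Hist1h2bc also holds more CCAAT boxes. Whether these letters bear on the direction of change was not tested. Of the 61 members matched to a RefSeq promoter, 85.2% had CCAAT on either strand in the promoter window, which runs from before to just after the start, against 37.4% of 32851 promoters; for TATAAA the shares were 57.4% and 13.6%, and for ATTTGCAT 23.0% and 1.74%. The E2F-like letters TTTCGCGC were in 14.8% and 0.323%, and TTTGGCGC in 0% of members and 0.514% of all. A match is a description of the letters and not a binding site.

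The increase of the abundant members in DM3 recurred in the overexpressing cells. In MUNC spliced cells limma called 10 of 21 members higher and 2 lower (17.2% and 18.4% of all genes), and in MUNC genomic cells 9 higher and 4 lower (26.3% and 25.1%). With MUNC spliced, Hist1h1c was at 22.6, 26.6 and 11.98 FPM in GM and 135, 120 and 94.6 FPM in DM3 (limma log2 change 2.51, adjusted p = 4.2e-05). With MUNC genomic it was at 51.9, 42.3 and 34.2 FPM in GM and 244, 102 and 128 FPM in DM3 (limma log2 change 1.78, adjusted p = 0.00029). Hist2h2bb, Hist3h2a, Hist2h3c2, Hist1h2al, Hist2h4, Hist2h2be and Hist1h2bg were likewise called higher in both; with MUNC spliced Hist1h2bg lost its call without any 1 of 4 libraries and Hist2h2be without MUNC spliced DM3 replicate 1 (adjusted p = 0.053), and with MUNC genomic Hist2h4 lost its call without any 1 of 4. Hist1h2ae and Hist1h3c were called lower in both.

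Some of the rarer members fell in the overexpressing cells too. Of the 42 below the limma filter, edgeR called 10 lower with MUNC spliced and 17 with MUNC genomic, and the others were not called. The limit that the filter sets on higher calls among the 42 applies here too. Over all 63 members, 10 were higher and 12 lower with MUNC spliced, and 9 were higher and 21 lower with MUNC genomic (11.0% and 11.2%, and 18.4% and 17.8%, of all genes). The median log2 change over the 63 was -0.81 and -1.01. Leaving out MUNC spliced DM3 replicate 3 left 4 lower calls, leaving out MUNC spliced DM3 replicate 2 left 7, and without MUNC spliced GM replicate 3 there were 5 higher and 8 lower. For MUNC genomic, 12 lower calls were left without MUNC genomic DM3 replicate 2. Hist1h2ai, an H2A gene below the filter, had 58 reads over the MUNC genomic GM libraries and none in MUNC genomic DM3, at least 18.4-fold lower by the same floor. Only 9.88% of its 50-base windows are unique. Hist4h4, above the filter, had 31, 34 and 29 reads and none, at least 29.8-fold lower.

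Set against control cells in the same medium, few members differed. In GM, limma called 3 of 21 members with MUNC spliced, 1 higher and 2 lower, where 35.5% of all genes were called, and 2 with MUNC genomic, both lower, where 26.8% were. With MUNC spliced, Hist2h2be was at 3.43, 2.73 and 3.12 FPM against 2.32, 2.04 and 2.18 FPM in control (limma log2 change 0.36, adjusted p = 0.035), without overlap. Hist1h2ae (limma log2 change -0.44, adjusted p = 0.015) and Hist1h3c (limma log2 change -0.34, adjusted p = 0.036) were lower. Each of the 3 calls was lost without at least 1 of several single libraries and with edgeR, with none left without control GM replicate 3 and 1 without MUNC spliced GM replicate 1. Other settings called other genes: edgeR called Hist1h2al higher (log2 change 1.82, adjusted p = 0.027), DESeq2 and a pseudocount of 0.1 each gave 2 higher and 0 lower with Hist1h2al among them, and without a filter 0 were higher and 10 lower. With the replicate number as a block the count was 2 higher and 3 lower, adding Hist1h2be (higher, limma adjusted p = 0.034) and Hist1h1a (lower, limma adjusted p = 0.020). With MUNC genomic, Hist3h2a was at 1.30, 1.57 and 0.819 FPM against 4.30, 6.03 and 2.50 FPM in control (limma log2 change -1.20, adjusted p = 0.0048). Trim17, which overlaps it, was at 0.478 ± 0.0813 FPM there (SD, n = 3). Hist1h3c was also called lower (limma log2 change -0.39, adjusted p = 0.023), but not without control GM replicate 2 or 3 or MUNC genomic GM replicate 1, nor by edgeR (adjusted p = 0.31). Without MUNC genomic GM replicate 3 the count was 4, with Hist1h2ae added as lower. Hist1h1c had more signal in every MUNC genomic GM library than in every control GM library, and its limma adjusted p of 0.056 passed the threshold only with the replicate block (0.0032), on rescaled values, with DESeq2, or without control GM replicate 1 or MUNC genomic GM replicate 3.

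In DM3, limma called 3 of 21 members with MUNC spliced, 1 higher and 2 lower, where 43.3% of all genes were called, and 5 with MUNC genomic, all lower, where 40.3% were. The MUNC genomic difference was largest for Hist1h2bc, which had 9.83, 5.45 and 5.85 FPM against 25.1, 30.2 and 25.3 FPM in control DM3 (limma log2 change -1.83 ± 0.26 SE, adjusted p = 3.2e-05). The partner gene across their shared promoter, Hist1h2ac, had 0.396, 0.346 and 0.234 FPM against 1.57, 1.54 and 0.387 FPM (limma log2 change -0.66, adjusted p = 0.0074); 1 control library overlapped. Hist1h4n was lower as well, at 0.198, 0.181 and 0.273 FPM (limma log2 change -0.44), with the same limit of having passed the filter through control DM3; edgeR on genes with at least 10 reads gave -1.49 (adjusted p = 0.0092). Hist3h2a (limma log2 change -0.80, adjusted p = 0.033) and Hist2h4 (limma log2 change -0.74, adjusted p = 0.027) were lower too. These last calls were weak: Hist3h2a lost its call without control DM3 replicate 1, or MUNC genomic DM3 replicate 2 or 3, and Hist2h4 without control DM3 replicate 2, or MUNC genomic DM3 replicate 1 or 2. Without MUNC genomic DM3 replicate 2 the count was 3 lower. The replicate block added Hist1h2be (limma adjusted p = 0.0033) and Hist1h4i (limma adjusted p = 0.016) as lower.

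For MUNC spliced in DM3, Hist2h3c2 was higher, at 3.51, 3.82 and 3.02 FPM against 2.73, 0.651 and 0.995 FPM in control (limma log2 change 0.94, adjusted p = 0.0067), though not by edgeR (adjusted p = 0.11). Hist1h4n was lower, at 0.228, 0.139 and 0.108 FPM against 0.711, 0.631 and 0.608 FPM (limma log2 change -0.51). It passed the limma filter only through control DM3, so a lower level here was built into its selection; edgeR on genes with at least 10 reads gave a log2 change of -1.97 (adjusted p = 0.0015). Hist1h1d was also called lower (limma log2 change -0.61, adjusted p = 0.026), but with overlapping libraries, not by edgeR (adjusted p = 0.066), and not without any 1 of 4 single libraries. With the replicate block Hist1h2bc was lower too (limma adjusted p = 0.027), at 18.2, 19.9 and 13.5 FPM. Over the 63 members with at least 10 reads, edgeR called 9 lower with MUNC genomic in DM3 (13.0% of all genes), 4 of the 21 above the limma filter and 5 of the 42 below it, a share near that of all genes. The 4 were Hist1h2ac, Hist1h2bc, Hist1h4n and Hist4h4, and the 5 were Hist1h2ai and the H4 genes Hist1h4c, Hist1h4h, Hist1h4j and Hist1h4k. Hist1h4j had 2, 2 and 4 reads there against 32, 24 and 39 in control DM3 (edgeR log2 change -3.50, adjusted p = 0.00051), and 4, 11 and 5 reads with MUNC spliced (edgeR log2 change -2.25, adjusted p = 0.0064).

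The comparisons between media and between cells share libraries, so the test of a different response to differentiation is the interaction. It was called for 1 of 21 members with each form of MUNC (14.4% of all genes for MUNC spliced and 8.81% for MUNC genomic). With MUNC genomic it was Hist1h2bc (limma interaction -1.76 ± 0.37 SE, adjusted p = 0.0063): this H2B gene stood at 4.42, 5.10 and 4.68 FPM in MUNC genomic GM, within the range of control GM, and its change in DM3 there was 0.45 against 2.21 in control cells. With MUNC spliced it was Hist1h4n (limma interaction -0.42, adjusted p = 0.033), which had passed the filter through control DM3 alone, a call lost when any 1 of 8 libraries was left out, and the replicate block added Hist1h1a (limma interaction 0.51, adjusted p = 0.020). For MUNC genomic the block added Hist1h2be (limma interaction -0.70, adjusted p = 0.040), edgeR added Hist4h4 (adjusted p = 0.015), and without control DM3 replicate 3 Hist1h2ac was called as well (limma interaction -0.92, adjusted p = 0.0018). A difference in response that misses the threshold does not show that the responses were equal.

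A single endothelial and a single epithelial marker, Cdh5 and Krt8, were higher with MUNC genomic and are given here because they differ between the same groups; the other 2 genes of each list were below the filter. The 3 endothelial markers summed to 7.10 to 7.36 FPM in MUNC genomic GM and 3.89 to 4.99 FPM in MUNC genomic DM3, against at most 0.602 FPM in any control library. The 3 epithelial markers summed to 7.79 to 14.9 FPM in MUNC genomic libraries, against at most 0.749 FPM in control. The 3 neuronal markers summed to 125 to 306 FPM in control GM, 28.5 to 89.7 FPM in MUNC spliced GM and 10.2 to 24.3 FPM in MUNC genomic GM, where both tested genes, Nefm and Tubb3, were called lower than in control. In DM3 the sums were 8.22 to 10.3, 5.93 to 18.0 and 4.72 to 9.34 FPM; Rbfox3, which marks neurons, was at most 0.0196 FPM on average in any group. Their part in the histone values was not tested.

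The genes that make and cut histone messages mostly fell in control DM3. Of the 20 genes on a list of histone pre-mRNA processing and decay factors, 12 were lower and 2 higher, with a median log2 change of -0.60. Over all genes tested, limma called 28.6% lower and 29.6% higher. Slbp, which encodes the stem-loop binding protein, averaged 83.7 ± 11.3 FPM in GM and 38.0 ± 4.75 FPM after 3 days in DM3 in control cells (SD, n = 3), and fell by 1.12 on the log2 scale (limma adjusted p = 5.8e-05). It also fell with MUNC spliced (limma log2 change -0.92) and MUNC genomic (limma log2 change -1.29). Casp8ap2, which encodes a component of histone locus bodies, the nuclear sites where histone genes are transcribed, fell by 1.23, and Lsm11, a protein of the U7 snRNP, by 0.69. Eri1, an exonuclease of histone message 3′ ends, fell by 1.19, and Cstf2, a cleavage factor, by 1.47. Zcchc6, a terminal uridyl transferase, rose from 54.2 to 145 FPM (limma log2 change 1.42, adjusted p = 1.0e-06). Npat, the transcriptional coactivator of histone genes, was at 49.5 and 41.6 FPM (limma log2 change -0.25, adjusted p = 0.051). Of 16 genes of general cleavage and polyadenylation, 9 were lower and 2 higher, with a median of -0.31.

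Replacement histones outside the clusters, most of whose messages carry a poly(A) tail and many of which are incorporated outside S phase, mostly did not rise with Hist1h1c. For H2afx, as for the clustered genes, a change in the share of the message with a tail was not tested. Of the 11 replacement histones tested in control DM3, 5 were lower and 1 higher, with a median log2 change of -0.34. The shares over all genes were 28.6% lower and 29.6% higher. H2afz, which encodes H2A.Z, went from 304 to 65.2 FPM (limma log2 change -2.20), H2afx, the H2A of the damage response, from 99.6 to 17.0 FPM (limma log2 change -2.50), and Cenpa, the centromeric H3, from 100.3 to 15.5 FPM (limma log2 change -2.63). H3f3b, one of the H3.3 genes, was at 1043 and 967 FPM and was not called (limma adjusted p = 0.58). H1f0, the replacement linker histone, was at 522 and 705 FPM (limma log2 change 0.48, adjusted p = 0.073). H2afy2, a macroH2A gene, was the one called higher, from 0.219 to 0.617 FPM (limma adjusted p = 0.0062). Of 20 histone chaperones, which carry histones to DNA, 15 were lower and 3 higher, with a median of -1.04.

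The S phase list was also compared between cells. Against control in DM3, 21 of its 30 genes were higher with MUNC spliced and none lower (median log2 change 1.05). The interaction of MUNC spliced with differentiation was called for 18, all in the same direction (median 1.33). Over all genes, both directions together, 43.3% were called against control in DM3 and 14.4% for the interaction. In those comparisons 1 histone member was higher and 2 lower, and 1 interaction was called, as given above. The 49 members below the filter summed to 1.93 to 4.25 FPM in MUNC spliced DM3, which overlapped the 2.92 to 5.17 FPM of control DM3.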

How the data were processed

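Poly(A)-enriched RNA of 18 libraries was analysed, 3 in each of 6 groups taken from the sample titles. Per the submitters' processing notes, STAR, HTSeq, DESeq2 and the mm10 build were used, with no role given. The deposited table gives a normalised signal per gene (FPM). Each value was a whole number of reads divided by a library factor (largest deviation 0.0354 read), so the authors' counts were recovered for 100% of values within a tolerance of 0.05 read. The authors' deposited comparison tables hold log2 fold changes, p-values and test scores, and were used only for the counts of members credited to them. Depth was 38416702 to 68788327 reads, and a floor of 3 reads was 0.0429 to 0.0757 FPM; it covers counting error only.

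Tests were made on log2(FPM + 1) with limma (version 3.58.1, under R version 4.3.3) for the 13869 genes that reached 0.5 FPM in 3 or more libraries, with all 18 libraries in 1 fit (12 residual degrees of freedom) and Benjamini-Hochberg adjustment over all genes tested. The labels call the replicates biological without saying what separates them, so p-values measure the spread between these samples, which may be technical. Alternatives were pseudocounts of 0.1 and 0.5, no filter, a filter at 1 FPM, rescaling to equal sums, edgeR 4.0.16 and DESeq2 1.42.0 on recovered reads, only the groups compared, a log2 change of at least 1, the replicate number as a block, and leaving out each library. The edgeR fit on 20007 genes with at least 10 reads, its fits without each library, and the line of 100 bases after the stem-loop were chosen after seeing the data. The limma, edgeR and DESeq2 fits were tested on simulated data for genes above the limma filter, in comparisons of DM3 against GM. The fit on genes with at least 10 reads, the replicate block, the comparisons between cells and the interactions were not simulated.

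Samples with the same replicate number went together in control DM3 against GM (correlations of deviations 0.203 to 0.411). They also did in the comparisons with control cells, at 0.494 to 0.726 in GM and 0.171 to 0.448 in DM3. Every pair in these comparisons was above 0.1. By that line they did not in MUNC spliced DM3 against GM (0.0163 to 0.376) or MUNC genomic DM3 against GM (0.0531 to 0.358), each because of a single pair. Samples with unlike numbers were not compared, so whether the numbers pair the samples was not tested. The main limma fit left the replicate number out, and the blocked fit is given as an alternative.

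The members and gene lists were chosen with earlier results of these data known. Members named by rule were the 12 with the highest mean FPM and, per comparison, up to 4 highest and 4 lowest called members without overlap and with a group mean of at least 1 FPM; all others named were chosen after their values were seen. Stem-loops, transcript ends and unique 50-base windows came from GENCODE M21, promoters from RefSeq. The level of the overexpressed MUNC was not used here.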

Additional observations from a re-analysis of the deposited data

Results flagged for a closer look

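The response of Hist1h2bc, an H2B gene, to DM3 differed between MUNC genomic and control cells by the interaction term (limma log2 difference -1.76, adjusted p = 0.0063); it stayed past the threshold without any single library. The response of Hist1h4n, an H4 gene with few unique windows, differed between MUNC spliced and control cells by the same kind of test (limma log2 difference -0.42, adjusted p = 0.033), but not by edgeR (adjusted p = 0.064) or DESeq2 (adjusted p = 0.074). Hist1h4n entered the limma test only through control DM3, where it is highest, so its difference is a description and not support. The cause of either difference was not tested.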

How the results depend on the processing

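Counts are members called, higher and lower together. The share of all genes called is not given for most of these settings, so the counts are only a description. Without a filter on low values they were 41 (13 higher, 28 lower) for control DM3 against GM, 20 for MUNC spliced, 25 for MUNC genomic, 10 and 10 for MUNC spliced and MUNC genomic against control in GM, 6 and 8 in DM3, and 3 and 2 for the interactions. In the same order, a log2 change of at least 1 left 6, 6, 4, 0, 1, 0 and 1, and 0 for the MUNC spliced interaction. With edgeR on genes with at least 10 reads the DM3 against GM counts were 36, 22 and 30, with 1 for MUNC spliced in GM, 9 for MUNC genomic in DM3, and 0 and 2 for the interactions. With edgeR on the limma genes 1 was called for MUNC spliced in GM, 1 for MUNC genomic in GM, 1 for MUNC spliced in DM3, and 0 and 2 for the interactions; DESeq2 gave 1 for MUNC spliced in DM3, and 0 and 2. Fitting only the groups compared gave 0 for MUNC spliced in GM and 0 for its interaction. A filter at 1 FPM gave 1 and 3 for MUNC genomic in GM and DM3 and 0 for the MUNC spliced interaction, and a pseudocount of 0.1 gave 1 for MUNC genomic in GM.

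With the replicate number as a block, 5 members were called for MUNC spliced in GM and 2 for each interaction; it moved no other count by more than 1.5 times. Leaving out 1 library at a time gave 15 to 17 for control DM3 against GM, 10 to 13 for MUNC spliced, 12 to 13 for MUNC genomic, 0 to 3 and 1 to 4 in GM, 2 to 4 and 3 to 6 in DM3, and 0 to 2 and 1 to 2 for the interactions; with edgeR on genes with at least 10 reads it gave 23 to 36, 13 to 20 and 21 to 29. Over the 21 members, 3067 of 3213 values kept their direction and side of the threshold, 96 fell short of it, 50 newly passed and 0 changed direction. The cause of these shifts was not tested, except that the fits without a filter or with at least 10 reads also cover rarer members. Members under 10 reads in all could not be assessed at this depth.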
